A study of Mus musculus with 10 samples.

Results

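Collagen chain genes were taken from the mRNA table as every symbol made of Col, a number, the letter a and a number, which gave 44 of 24736 symbols. All 44 passed the low-count filter that left 18988 genes for testing. They comprised 11 chains of fibrillar collagens, 8 chains of basement membrane collagens and 25 other chains. RNA came from whole eyeballs. The animals were female mice of the outbred Kunming stock, 4 weeks old by their labels, and the sample titles give day 14. Natural light was given to 2 control libraries (control A and B), and light from a blue lamp of 18 W, inside a darkened container, to 3 blue-light libraries (blue A, B and C). No genotype or further agent is named for either group. A miRNA table from libraries of the same groups and letters was used for the arms of miR-29. Separate animals are not stated for the libraries of a group, so the p-values reflect the spread between these libraries alone, and it may be technical.

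Collagens are trimers of alpha chains wound into a helix, and each chain has a gene of its own. Fibrillar collagens form the banded fibrils of cornea, sclera and tendon and the thin fibrils of the vitreous, while type IV chains form the sheet-like network of basement membranes, including the lens capsule and the inner limiting membrane of the retina. Other chains attach to fibril surfaces (the FACIT group), form beaded filaments or hexagonal lattices, anchor epithelia or span the cell membrane. New chains are hydroxylated and glycosylated in the endoplasmic reticulum, trimmed of their propeptides outside the cell and cross-linked by lysyl oxidases. The eyeball samples hold all these tissues together, so fewer cells of a type and less RNA per cell cannot be told apart in any value below.

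Library totals ran from 87071487 to 107660103 estimated counts. The share of Rn45s, a ribosomal precursor, was 4.30% in control A and from 8.69% to 14.4% in the other 4 libraries. Levels are given as CPM, counts scaled to a common library size by edgeR's TMM method, in the order control A and B, then blue A, B and C. CPM are not divided by transcript length, so levels are compared between libraries and not between genes. Differences are log2 fold changes, blue minus control, with a standard error (SE), from edgeR's quasi-likelihood test, and a gene is called where its p adjusted over all tested genes was under 0.05.

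Of the 44 collagen chains 1 was called, Col19a1, and it fell under blue light. That is 2.27% of the chains, against a background of 2.22% of all tested genes, of which 421 were called. Lower calls made up 1.55% of all genes (295 genes) and higher calls 0.664% (126 genes), while 0 chains were called higher. With library totals as the only scaling, the split over all genes was 124 higher and 150 lower. At an unadjusted p under 0.05 there were 6 chains, 3 higher and 3 lower, which is 13.6% against a background of 16.3%. Groups did not overlap for 12 chains, or 27.3%, against a background of 35.6%. DESeq2 called 3 chains, Col19a1, Col23a1 and Col25a1, which is 6.82% against its background of 9.11%, and limma-voom called 1, or 2.27%, against its background of 2.41%. Each of these shares of chains was near or below its background.

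Most chains differed little between the groups. Of the 44 chains, 38 had a log2 fold change between -0.5 and 0.5, which is 86.4% against 81.6% of all tested genes. The median log2 fold change was -0.06 over the 44 chains and -0.0056 over all tested genes. It was -0.18 over the fibrillar chains, 0.07 over the basement membrane chains and -0.07 over the other chains. The medians of all chains and of the other chains changed sign when single libraries were left out. The fibrillar median was -0.43 without blue A and 0.0089 without blue B, so it rested on those libraries.

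**Figure D1:**
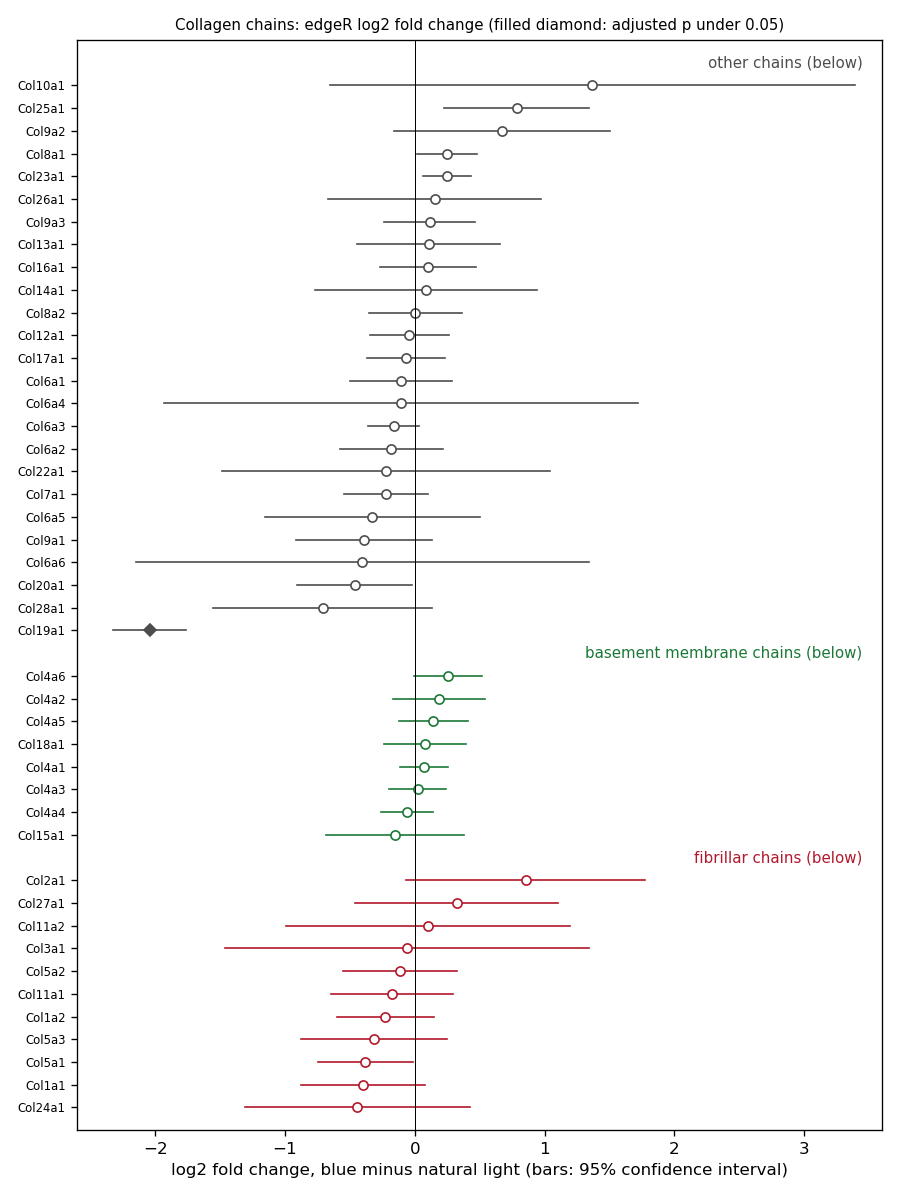
Log2 fold change of each of the 44 collagen chains, blue minus natural light (horizontal axis), with bars for the 95% confidence interval, grouped into other, basement membrane and fibrillar chains. Col19a1 at -2.04 is the only filled diamond, and 38 of the 44 points lie between -0.5 and 0.5.

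Col19a1 encodes the chain of type XIX collagen, a FACIT collagen of basement membrane zones that is made by some neurons and by differentiating muscle. Its CPM were 19.8 and 20.0 in the controls and 4.54, 4.75 and 5.18 under blue light. Every blue-light library lay below both controls, and the libraries of each group were close to each other, with means of 19.9 ± 0.141 (SD, n = 2) and 4.83 ± 0.327 (SD, n = 3). The log2 fold change was -2.04 (SE 0.11, 95% confidence interval -2.33 to -1.76), with an edgeR adjusted p of 0.0115. Over the alternatives the adjusted p ran from 1.50e-48 with DESeq2 to 0.224 with the letter as a block. The call was lost without control A (adjusted p 0.0669) and without control B (adjusted p 0.0622), where the log2 fold changes were -2.03 and -2.04 and the lone control was assumed to vary like the blue-light libraries. Col19a1 thus kept its size in each of these fits, while its call was lost with either control left out and also with the block, which kept both controls.

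The summed level of 12 rod photoreceptor markers moved in the same direction as Col19a1. It was 15793 and 15162 CPM in the controls and 3767, 6338 and 5110 CPM under blue light. Every blue-light library lay below both controls for all 12 markers, against 3810 of the 18988 tested genes. Of the 12 markers edgeR called 10 lower, against a background of 1.55% of all tested genes, and 0 were at 0 in every library. Among the blue-light libraries the order differed, since blue A had the lowest rod level, and also the lowest Col19a1 level, but blue B had the highest rod level and blue C the highest Col19a1 level. The part of the rod markers in the Col19a1 result was not tested. The gene lies on the reverse strand of chromosome 1 (chr1:24257683-24587922, GRCm38.p6), and the 300 bases of its RefSeq promoter window, 250 before and 50 after the start, at chr1:24587388-24587687, are shown because this is the chain that was called:
Col19a1 promoter: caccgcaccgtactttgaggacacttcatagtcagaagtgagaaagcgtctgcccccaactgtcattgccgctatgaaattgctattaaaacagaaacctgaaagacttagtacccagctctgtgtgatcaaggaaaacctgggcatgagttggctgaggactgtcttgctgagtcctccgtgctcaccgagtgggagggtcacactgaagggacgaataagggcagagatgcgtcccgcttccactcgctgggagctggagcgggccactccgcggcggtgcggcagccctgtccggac

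In that window 4 short motifs were searched on both strands. They were the TATA box core TATAAA, the box known as CCAAT, the core of Sp1 sites as GGGCGG, and the core of sites for Crx, the photoreceptor homeobox factor, as TAATCC. No motif contains another. None of the 4 occurred in the Col19a1 window. RefSeq windows were found for 35 of the 44 chains, 38 windows in all. TATAAA occurred in 13.2% of them against 13.6% of all 32851 windows, CCAAT in 34.2% against 37.4%, GGGCGG in 60.5% against 35.7%, and TAATCC in 0% against 7.06%. A match is a description of letters and not of a bound site.

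Col9a1, a FACIT chain of the vitreous and of cartilage, is the next gene to Col19a1 on chromosome 1, with 4944 bases between them. Its CPM were 36.4 and 32.2 in the controls and 31.6, 19.2 and 27.5 under blue light. Those of blue light all lay below the controls, but by far less than for Col19a1 (log2 fold change -0.39, SE 0.21, edgeR adjusted p 0.434). The ratio of Col9a1 to Col19a1 within a library was 1.84 and 1.61 in the controls and 6.96, 4.04 and 5.31 under blue light, so the neighbours did not move in proportion. Col9a1 was chosen for its position.

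Among the fibrillar chains 0 of 11 were called by edgeR, DESeq2 or limma-voom, 1 had an unadjusted p under 0.05 with edgeR, and 8 of 11 had a log2 fold change below 0. Col5a1, a chain that limits the diameter of corneal fibrils, was the one with the small p. Its CPM were 253 and 287 in the controls and 245, 176 and 200 under blue light. The groups did not overlap, but blue A and control A differed by only a few CPM (log2 fold change -0.38, SE 0.15, edgeR adjusted p 0.288). Its partner in type V collagen, Col5a2, had 176 and 196 CPM in the controls and 212, 139 and 164 under blue light, with overlapping groups. The ratio of Col5a1 to Col5a2 was 1.44 and 1.47 in the controls and 1.16, 1.27 and 1.22 under blue light, a gap between the groups that was picked out from the values themselves and was not tested.

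Type I collagen, the main collagen of cornea and sclera, is made of the chains Col1a1 and Col1a2. Col1a1 had 2140 and 2050 CPM in the controls and 1912, 1191 and 1658 under blue light. All blue-light values were below the controls, yet the spread among them was wider than the gap, and the difference did not pass (log2 fold change -0.40, SE 0.19, edgeR adjusted p 0.387). Col1a2 had 1484 and 1526 CPM in the controls and 1504, 1050 and 1301 under blue light, with overlapping groups (log2 fold change -0.23, SE 0.15, edgeR adjusted p 0.532). The ratio of Col1a1 to Col1a2 ran from 1.34 to 1.44 in the controls and from 1.13 to 1.27 under blue light. It too was chosen after its values were seen.

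Col3a1, which forms fibrils with type I collagen in soft tissue and vessel walls, had 464 and 896 CPM in the controls and 1168, 351 and 436 under blue light. Both groups spread widely and overlapped, and the fold change was near 0 with a wide error (log2 fold change -0.06, SE 0.57, edgeR adjusted p 0.974). Leaving out single libraries moved it from -0.77 to 0.49. The ratio of Col3a1 to Col1a1 in a library ran from 0.217 to 0.611, a wider range than for any other pair of partner chains computed except Col9a1 and Col19a1.

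Col2a1, the fibril chain of vitreous and cartilage, had 16.1 and 15.6 CPM in the controls and 44.3, 18.6 and 23.1 under blue light. All blue-light values were higher, and blue A stood apart from the rest (log2 fold change 0.85, SE 0.37, edgeR adjusted p 0.338). Without blue A the log2 fold change was 0.41 with an adjusted p of 0.302. The adjusted p of the remaining fibrillar chains, Col5a3, Col11a1, Col11a2, Col24a1 and Col27a1, ran from 0.567 for Col5a3 to 0.947 for Col11a2, and their groups overlapped.

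**Figure D2:**
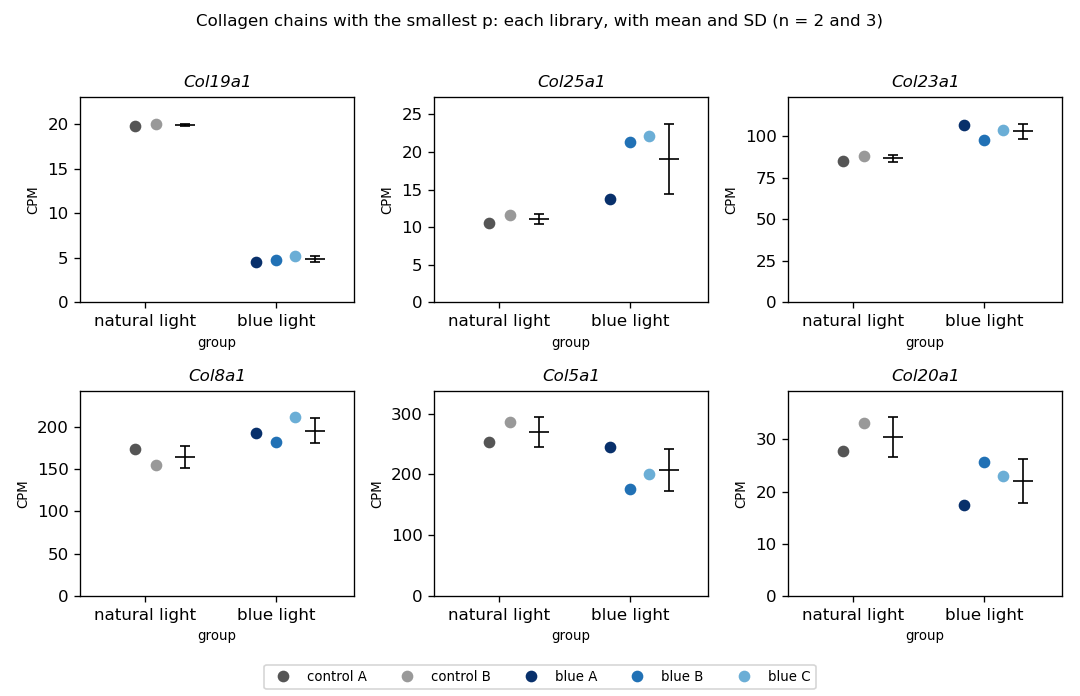
CPM of the 6 chains with an unadjusted p under 0.05 (vertical axes, each from 0) in every library of each group, with a line for the mean and bars for the SD (2 control and 3 blue-light libraries). For Col19a1 the groups lie far apart, at 19.8 to 20.0 and 4.54 to 5.18 CPM, while for Col25a1 and Col5a1 blue A lies nearest the controls.

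Basement membrane chains were at similar levels in both groups. In edgeR 0 of 8 were called and 0 had an unadjusted p under 0.05, and DESeq2 and limma-voom called 0. All 8 had a log2 fold change between -0.5 and 0.5, from -0.15 for Col15a1 to 0.26 for Col4a6, with 6 above 0.

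Col4a1 and Col4a2 form the network found in nearly all basement membranes. Col4a1 had 401 and 413 CPM in the controls and 421, 408 and 455 under blue light (log2 fold change 0.07, SE 0.08, edgeR adjusted p 0.703). Col4a2 had 253 and 344 CPM in the controls and 336, 317 and 364 under blue light (log2 fold change 0.19, SE 0.14, edgeR adjusted p 0.596). Both chains had overlapping groups and were highest in blue C. The 95% confidence interval of Col4a1 was -0.11 to 0.26 and that of Col4a2 -0.17 to 0.54.

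The genes of this pair lie head to head on chromosome 8 and share their start region. The 78 bases common to both RefSeq promoter windows (chr8:11312777-11312854, GRCm38.p6, forward strand) are shown because they serve both chains, with GGGCGG in capitals, the only match to the 4 motifs:
Col4a1 and Col4a2 shared bases: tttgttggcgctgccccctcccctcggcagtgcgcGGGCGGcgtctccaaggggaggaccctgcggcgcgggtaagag
With this shared start the ratio of Col4a1 to Col4a2 was 1.59 in control A and between 1.20 and 1.29 in the other 4 libraries, so control A stood apart through its low Col4a2 level.

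Col4a3, Col4a4 and Col4a5 make the network of the lens capsule and of Descemet's membrane. Col4a3 had 137 and 132 CPM in the controls and 143, 124 and 143 under blue light, with a log2 fold change of 0.02 (SE 0.09) whose sign differed between settings. Col4a4 ran from 85.8 to 96.6 CPM over the 5 libraries. Col4a5 had 79.6 and 93.5 CPM in the controls and 99.5, 86.9 and 101 under blue light (log2 fold change 0.14, SE 0.11, edgeR adjusted p 0.587). These chains differed by less than the spread between libraries.

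Col4a6, the partner of Col4a5 in smooth muscle and some epithelial basement membranes, had 55.2 and 63.6 CPM in the controls and 75.2, 64.5 and 73.2 under blue light. All 3 blue-light values lay above the controls, with blue B just above control B (log2 fold change 0.26, SE 0.11, edgeR adjusted p 0.314). Col4a6 and Col4a5 lie 1274 bases apart on chromosome X, and their ratio, Col4a5 to Col4a6, ran only from 1.32 to 1.47, with the highest 1.11 times the lowest.

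Col18a1, which carries the endostatin fragment and lies in the basement membranes of retina and vessels, had 82.0 and 99.8 CPM in the controls and 101, 84.3 and 102 under blue light (log2 fold change 0.08, SE 0.13, edgeR adjusted p 0.833). Col15a1, its relative in muscle and vessel basement membranes, ran from 21.1 CPM in blue B to 34.8 in control B. Groups overlapped for both.

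Of the 25 other chains edgeR called 1, Col19a1, and DESeq2 called 3. Among the 4 transmembrane chains, Col25a1, a chain of neurons needed for motor axons to reach muscle, had 10.6 and 11.6 CPM in the controls and 13.7, 21.4 and 22.2 under blue light. All 3 blue-light values were higher, and blue A was nearest to the controls (log2 fold change 0.78, SE 0.23, edgeR adjusted p 0.177, and 0.0169 with DESeq2). Without blue A the log2 fold change was 0.99 and the edgeR adjusted p 0.0267.

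Col23a1, another transmembrane chain, had 85.2 and 88.2 CPM in the controls and 107, 98.0 and 104 under blue light. The groups did not overlap and each was narrow, but the difference was small (log2 fold change 0.25, SE 0.07, edgeR adjusted p 0.186, and 0.0125 with DESeq2). Col17a1, the transmembrane chain of hemidesmosomes that holds the corneal epithelium to its basement membrane, had 289 and 244 CPM in the controls and 279, 225 and 259 under blue light. Its groups overlapped, with a log2 fold change of -0.07 (SE 0.12). Col13a1 ran from 2.38 to 3.16 CPM.

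Col8a1 and Col8a2 form the hexagonal lattice of Descemet's membrane behind the corneal stroma. Col8a1 had 173 and 155 CPM in the controls and 193, 182 and 211 under blue light, with all blue-light values higher (log2 fold change 0.25, SE 0.09, edgeR adjusted p 0.276). Col8a2 had 132 and 151 CPM in the controls and 122, 138 and 166 under blue light, with a log2 fold change of 0.0037 (SE 0.15). The 2 chains of this lattice thus differed in their values, and the difference between them was not tested.

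Col6a1, Col6a2 and Col6a3 build the beaded filaments of type VI collagen around cells and between corneal fibrils. Col6a3 had 366 and 393 CPM in the controls and 349, 316 and 352 under blue light, and the groups did not overlap (log2 fold change -0.16, SE 0.08, edgeR adjusted p 0.393). Col6a1 had 312 and 332 CPM in the controls and 366, 257 and 275 under blue light, with blue A above and blue B and C below the controls (log2 fold change -0.11, SE 0.16, edgeR adjusted p 0.807). All 6 type VI chains had log2 fold changes below 0 with all libraries, from -0.41 to -0.11, and 0 of 6 were called. Their signs rested on single libraries for 4 of them. Col6a6 went from -0.41 to 0.43 without control B and to -1.28 without blue A, Col6a5 to 0.096 and Col6a4 to 0.35 without control A, Col6a4 to 0.33 without blue C, and Col6a1 to 0.014 without blue B.

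Among the other FACIT chains, Col12a1, which decorates type I fibrils in the cornea, had 1105 and 935 CPM in the controls and 875, 1010 and 1087 under blue light. Blue A was below and control A above every library of the other group, and the rest overlapped (log2 fold change -0.04, SE 0.12, edgeR adjusted p 0.916). Col20a1, which was chosen after its p was seen, had 27.7 and 33.1 CPM in the controls and 17.5, 25.6 and 23.1 under blue light (log2 fold change -0.46, SE 0.18, edgeR adjusted p 0.289). Col28a1, which belongs to none of these classes, ran from 2.04 to 2.55 CPM in the controls and from 1.01 to 1.93 under blue light, with an adjusted p of 0.383. Col9a3, Col16a1 and Col26a1 had log2 fold changes between 0.10 and 0.15, with edgeR adjusted p from 0.757 to 0.876. The adjusted p of Col7a1, the anchoring fibril chain beneath the corneal epithelium, was 0.481.

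Many chains also differed between libraries of the same group. Blue B had the lowest level of 26 of the 44 chains, or 59.1%, against 16.3% of all tested genes, and of 9 of the 11 fibrillar chains, and it had the highest level of 0 chains. Blue A had the highest level of 17 chains, or 38.6%, against 24.4% of all genes. The summed level of the 44 chains was 8878 and 9394 CPM in the controls and 9647, 6929 and 8333 under blue light. For the fibrillar chains it was 4698 and 5135 CPM in the controls and 5291, 3037 and 3933 under blue light, while for the basement membrane chains it ran from 1125 to 1361 CPM. In summed CPM the gap between blue A and blue B thus lay mainly in the fibrillar chains, with both libraries under blue light. Abundant chains weigh most in such a sum. In blue A and blue B, Col1a1 had 1912 and 1191 CPM, Col1a2 1504 and 1050 CPM, and Col3a1 1168 and 351 CPM.

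**Figure D3:**
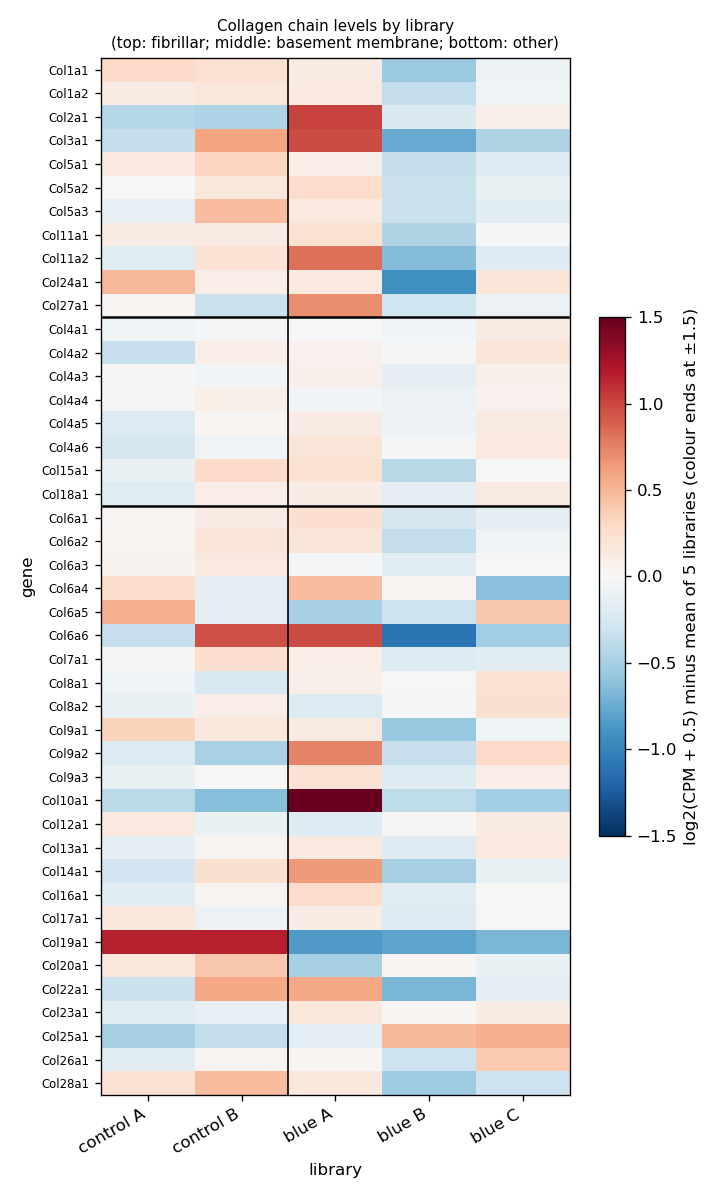
Level of each chain in each library as log2(CPM + 0.5) minus the gene's mean over the 5 libraries, as colour from blue (low) to red (high). Col19a1 shows the controls high and blue light low, the basement membrane rows are pale, and blue B is the lowest library for 9 of the 11 fibrillar chains.

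Blue A was at least 1.5 times above each other library for 4 chains, Col2a1, Col10a1, Col11a2 and Col27a1, which is 9.09% of the chains against 1.75% of all tested genes. These were named for that pattern after their values were seen, and all are known from cartilage. Col10a1, the chain of hypertrophic cartilage, had 12.6 and 10.7 CPM in the controls and 65.6, 12.8 and 11.7 under blue light. Its log2 fold change of 1.37 (SE 0.82, edgeR adjusted p 0.482) was 0.087 without blue A. Col10a1 lies within Nt5dc1, which had 10.7 and 13.2 CPM in the controls, 14.5 in blue A and less in the other blue-light libraries, so the counts of the neighbour did not rise in blue A to the same extent.

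Col11a2, which forms thin fibrils with type II collagen, had 16.1 and 21.4 CPM in the controls and 32.9, 11.5 and 16.0 under blue light. Col27a1, a fibrillar chain of cartilage, had 31.6 and 24.5 CPM in the controls and 50.8, 25.2 and 29.3 under blue light. Col9a2, the partner of Col9a1 on type II fibrils, had 7.47 and 6.07 CPM in the controls and 14.9, 6.72 and 10.7 under blue light. In each of them blue A was the highest library, while blue B lay within or below the range of the controls.

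Most cartilage and sclera markers were also highest in blue A, by very different amounts. Acan, the large proteoglycan of cartilage, had 1.38 and 1.89 CPM in the controls and 47.5, 0.782 and 0.714 under blue light. Hapln1, its link protein, had 11.6 CPM in blue A and from 1.02 to 1.99 in the other libraries, and Ucma, a cartilage matrix protein, 4.21 CPM in blue A and at most 0.161 elsewhere. Of 9 tested cartilage and sclera markers 8 were highest in blue A, their summed level was 458 and 422 CPM in the controls and 636, 427 and 404 under blue light, 0 were called, and Matn1, which was not tested, was at 0 in at least 1 library. The part of cartilage in these values was not tested.

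A second pattern joined control B with blue A. Both were the highest libraries for 14 of the 44 chains, or 31.8%, against 12.8% of all tested genes, and for 13 of 13 markers of extraocular muscle. The 14 chains were Col1a2, Col3a1, Col5a2, Col5a3, Col11a1 and Col11a2 of the fibrillar chains, Col15a1 of basement membranes, and Col6a1, Col6a2, Col6a6, Col7a1, Col14a1, Col16a1 and Col22a1. Col6a6 had 8.07 and 20.8 CPM in the controls and 20.9, 4.57 and 7.14 under blue light. Col22a1, a chain of muscle-tendon junctions, had 2.22 and 4.61 CPM in the controls and 4.58, 1.62 and 2.58 under blue light. Col14a1, a FACIT chain of tendon and skin, had 98.7 and 143 CPM in the controls and 187, 84.9 and 113 under blue light. The summed level of the muscle markers was 772 and 1669 CPM in the controls and 1616, 830 and 856 under blue light, with 0 markers at 0 in every library and 0 called. The pattern was not particular to muscle. The mean log2 level of the muscle list, relative to its average over the libraries, was 0.64 in control B and 0.63 in blue A. It was 0.12 and 0.30 for corneal stroma and fibroblasts, 0.07 and 0.43 for corneal epithelium, and 0.17 and 0.12 for mural cells. In these lists it was negative in every other library, though single stroma, epithelium and mural markers differed. The remaining marker lists differed. The part of attached muscle or of these other cells in the levels of these chains was not tested, and the chains were chosen after their values were seen.

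**Figure D4:**
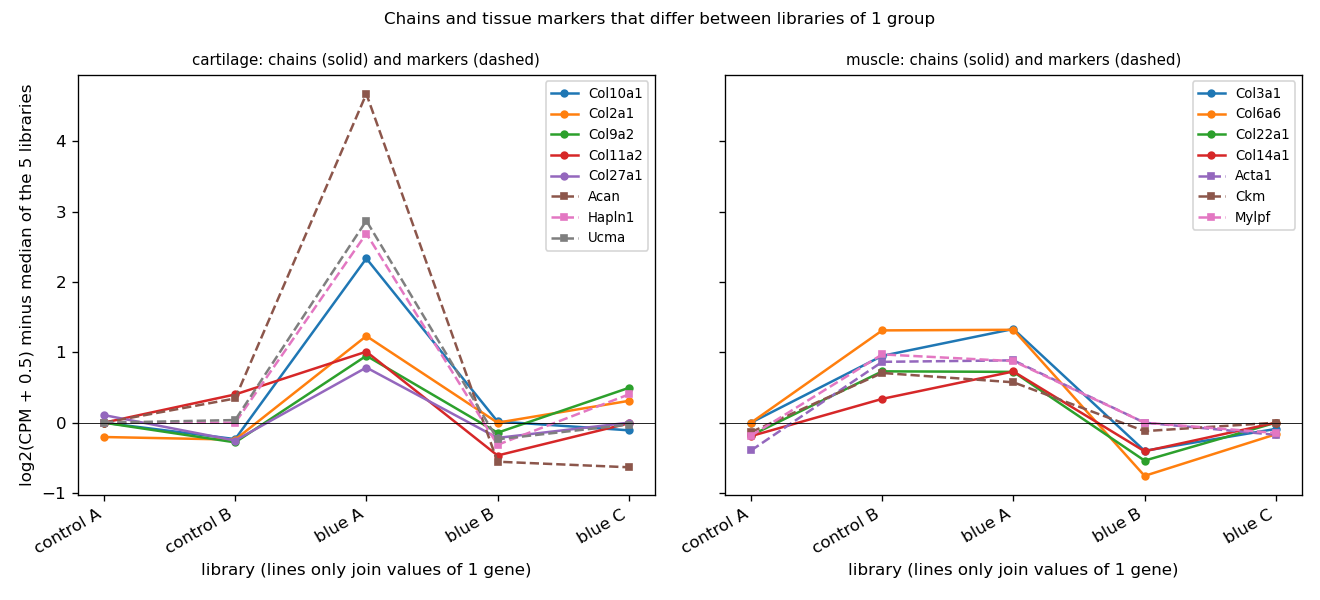
Level of named chains (solid lines) and tissue markers (dashed lines) in each library, as log2(CPM + 0.5) minus the median of the 5 libraries, with cartilage on the left and muscle on the right. In the left panel every line peaks in blue A, and in the right panel control B and blue A are the high libraries.

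Corneal stroma cells and fibroblasts make most fibrillar chains of the eye wall. Of 10 markers of these cells 0 were called, and their summed level was 1982 and 1996 CPM in the controls and 2235, 1921 and 2050 under blue light. Dcn, with 990 to 1168 CPM, made up much of that sum. The markers differed among themselves. Fbln1 had 92.5 and 115 CPM in the controls and 157, 152 and 149 under blue light (log2 fold change 0.55, edgeR adjusted p 0.0738), Kera, described below with the fibril partners, was lower in every blue-light library, and Pi16 ran from 35.8 CPM in control A to 110 in blue A. Pdgfra, Clec3b, Pi16 and Dpt were highest in control B and blue A, as the muscle markers were, and the other markers were not. Blue B was the lowest library for 4 of the 10 markers. The part of these cells in the levels of the chains was not tested.

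Of 98 tested genes that build, trim, hold, degrade or sense collagen, edgeR called 3 (3.06%), all of them higher, against the background of 2.22%. At an unadjusted p under 0.05 there were 22 (22.4%, background 16.3%), DESeq2 called 14 (14.3%, background 9.11%) and limma-voom 6 (6.12%, background 2.41%). The same backgrounds apply to each list of these genes below. All 14 that DESeq2 called were higher under blue light. Control A was the lowest library for 41 of the 98 genes, or 41.8%, against 24.2% of all tested genes. Groups did not overlap for 36 of the 98 genes, 27 higher and 9 lower under blue light, which is 36.7% against a background of 35.6%. The median log2 fold change of the 98 genes was 0.09.

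For synthesis and folding, edgeR called 0 of 21 genes, 3 had an unadjusted p under 0.05, DESeq2 called 1 and limma-voom 0. Colgalt2, which adds galactose to hydroxylysine of collagen, had 31.6 and 33.5 CPM in the controls and 42.4, 39.3 and 37.5 under blue light (log2 fold change 0.29, edgeR adjusted p 0.192). P3h3, a prolyl 3-hydroxylase family member, had 30.2 and 28.0 CPM in the controls and 33.4, 33.8 and 35.0 under blue light (log2 fold change 0.23, edgeR adjusted p 0.241). Serpinh1, the collagen chaperone Hsp47, was named after its values were seen, with 104 and 128 CPM in the controls and 55.4, 103 and 57.3 under blue light. Its blue-light libraries were all below the controls but blue B nearly reached control A (log2 fold change -0.70, SE 0.29, edgeR adjusted p 0.316).

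Of 13 genes for propeptide cleavage and cross-linking, edgeR called 1, Pcolce, which rose, 5 had an unadjusted p under 0.05 and DESeq2 called 3. Pcolce encodes the enhancer of the proteinase that removes the C-propeptide of fibrillar procollagens, and lies at chr5:137605105-137611522 (GRCm38.p6). Its CPM were 90.3 and 95.2 in the controls and 157, 142 and 156 under blue light, with a wide gap between narrow groups (log2 fold change 0.71, SE 0.08, edgeR adjusted p 0.0202). The proteinase Bmp1 had 42.1 and 51.0 CPM in the controls and 69.3, 49.9 and 57.9 under blue light, with overlapping groups, and was named here as the partner of Pcolce. The Pcolce call was lost without control A (adjusted p 0.164), control B (0.103) or blue C (0.107), within a range over the alternatives from 1.90e-14 with DESeq2 to 0.336 with the block.

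Of the 16 laminins, nidogens and other basement membrane partners, edgeR called 1, Agrn, and DESeq2 called 2. Agrn encodes agrin, a heparan sulfate proteoglycan of basement membranes and of the nerve-muscle synapse, and lies at chr4:156165290-156197533. Its CPM were 120 and 122 in the controls and 323, 245 and 263 under blue light, all above the controls (log2 fold change 1.20, SE 0.13, edgeR adjusted p 0.0199). The call was lost without control A (adjusted p 0.170), control B (0.114) or blue C (0.0886), within a range over the alternatives from 2.25e-15 with DESeq2 to 0.263 with the block. Agrn rose while 0 of the 8 basement membrane collagen chains were called, and the difference between them was not tested.

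Of the 14 fibril partners edgeR, DESeq2 and limma-voom called 0, with 1 at an unadjusted p under 0.05 in edgeR. Kera, a keratan sulfate proteoglycan that spaces corneal fibrils, had 193 and 187 CPM in the controls and 172, 145 and 162 under blue light (log2 fold change -0.25, SE 0.09, edgeR adjusted p 0.244). Aspn, a collagen-binding relative of decorin, had 26.6 and 36.6 CPM in the controls and 44.5, 37.2 and 40.3 under blue light (log2 fold change 0.36, edgeR adjusted p 0.333).

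Of 13 tested genes for degradation and its inhibitors, edgeR called 1, Timp1, an inhibitor of matrix metalloproteinases. Its CPM were 1.28 and 1.56 in the controls and 4.51, 4.17 and 4.57 under blue light (log2 fold change 1.64, SE 0.20, edgeR adjusted p 0.0245). Timp1 (chrX:20870166-20874737) lies within Syn1, and whether counting used the strand is not stated. Syn1 had 69.6 and 57.7 CPM in the controls and from 60.4 to 67.9 under blue light (log2 fold change 0.0032). Timp1 made up 4.79% of the counts of Timp1 and Syn1 together. Where overlapping genes were summed, genes linked through a chain of overlaps were joined. The sum that holds Timp1 had a log2 fold change of -0.15 with an edgeR adjusted p of 0.445. It is not the sum of Timp1 and Syn1 alone, since both of these had log2 fold changes above 0. The Timp1 call was also lost with any single library left out, with adjusted p from 0.0529 to 0.163, and with the block (0.332).

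Of 8 tested collagen receptors edgeR called 0, 2 had an unadjusted p under 0.05, and DESeq2 called both of them. Ddr1, a receptor tyrosine kinase for collagen, had 58.7 and 62.2 CPM in the controls and 86.2, 80.1 and 91.0 under blue light (log2 fold change 0.50, edgeR adjusted p 0.0510). Lair1, an inhibitory collagen receptor of leukocytes, had 4.53 and 6.50 CPM in the controls and 10.3, 9.40 and 7.54 under blue light (log2 fold change 0.72, edgeR adjusted p 0.197). Blue-light libraries were all above the controls for both.

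Of 13 TGF-beta signal genes, a pathway known to drive collagen transcription, edgeR called 0. At an unadjusted p under 0.05 in edgeR there were 6 (46.2%, background 16.3%), all higher. DESeq2 called 5 (38.5%, background 9.11%) and limma-voom 2 (15.4%, background 2.41%). Control A was the lowest library for 10 of the 13 genes (76.9%, against 24.2% of all tested genes), and its part in these counts was not tested. Tgfb2, a ligand prominent in ocular tissue, had 109 and 119 CPM in the controls and 183, 156 and 164 under blue light (log2 fold change 0.56, edgeR adjusted p 0.0510). Ctgf, a matricellular target of the pathway, had 99.9 and 122 CPM in the controls and 172, 175 and 162 under blue light (log2 fold change 0.61, edgeR adjusted p 0.0535). The groups did not overlap for either gene.

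Most Müller glia markers were higher under blue light. Of 10 such markers edgeR called 2 higher, Gfap and Slc1a3, against a background of 0.664% of all tested genes. Every blue-light library lay above both controls for 8 of the 10, against 2957 of the 18988 tested genes. Glul, glutamine synthetase and the marker with the highest CPM, was lower in every blue-light library. It had 1462 and 1603 CPM in the controls and 1087, 1163 and 1056 under blue light (log2 fold change -0.48, edgeR adjusted p 0.0537). Rlbp1 had overlapping groups. The summed level of the list was 3221 and 3431 CPM in the controls and 3911, 3605 and 3630 under blue light, and 0 were at 0 in every library. Their part in the values of Agrn, Pcolce, Tgfb2 and Ctgf was not tested.

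**Figure D5:**
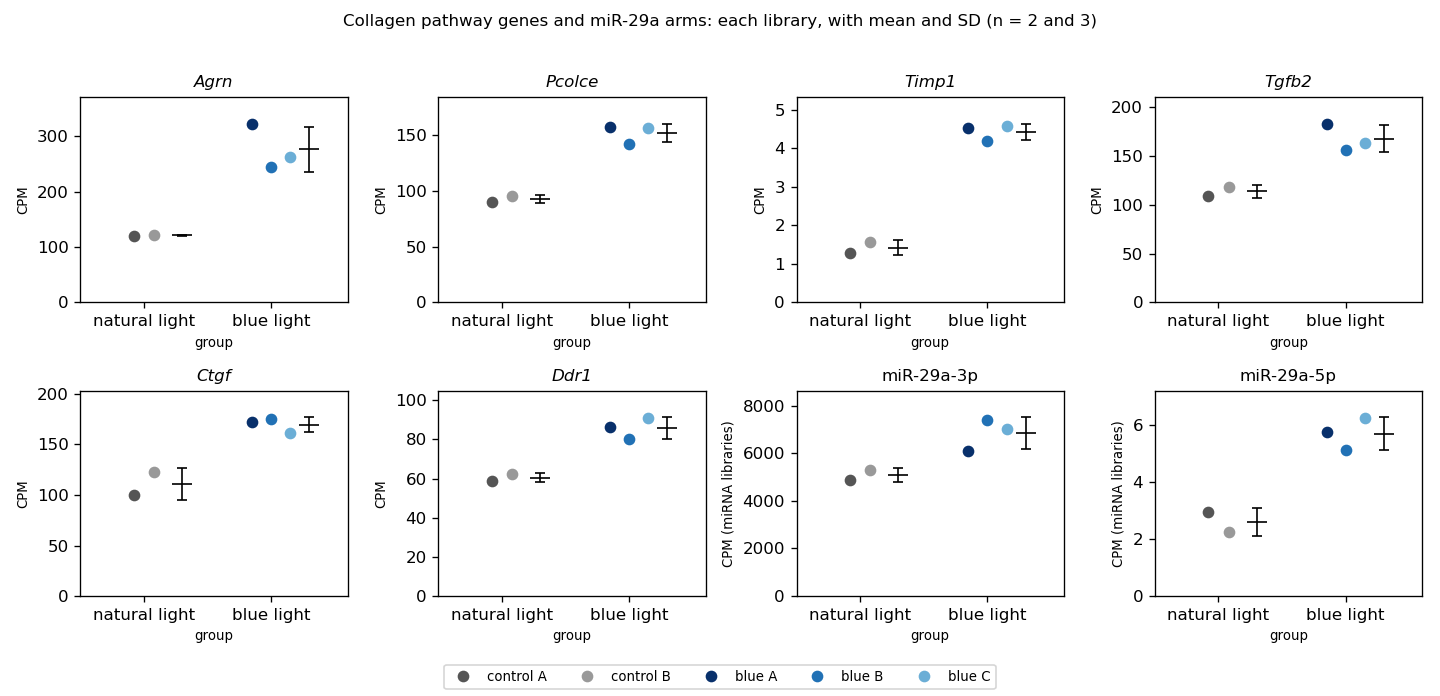
CPM of 6 collagen pathway genes and 2 miR-29a arms (vertical axes, each from 0) in every library, with a line for the mean and bars for the SD (2 control and 3 blue-light libraries). In every panel all blue-light points lie above the control points, and edgeR called Agrn, Pcolce and Timp1 of the 8. The genes shown are those with the smallest p in their lists. Over all 98 pathway genes, groups did not overlap for 36.7%, against 35.6% of all tested genes.

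The miR-29 family represses collagen mRNAs, among them those of types I, III and IV, through a seed that its 3p arms share. The mature sequences from RefSeq (GRCm38.p6) are shown because the shared seed is what ties these arms to the chains, with bases 2 to 8, the seed, in capitals, and the 5p arm of miR-29a below them has another seed:
mmu-miR-29a-3p: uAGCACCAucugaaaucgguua
mmu-miR-29b-3p: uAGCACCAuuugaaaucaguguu
mmu-miR-29c-3p: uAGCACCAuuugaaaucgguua
mmu-miR-29a-5p: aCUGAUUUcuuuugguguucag

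The miRNA data held 7 miR-29 arms, of which 6 were tested and edgeR called 0, against a background of 0.624% of the 641 tested miRNAs, of which 4 were called. DESeq2 also called 0 arms, and 2 arms, both of miR-29a, had an unadjusted p under 0.05 in edgeR. The share of all 641 tested miRNAs at that p is not given here, nor the share with all blue-light libraries above the controls. The miR-29a values below thus have no background to be read against. The miRNA libraries held from 8355432 to 10875487 counts. miR-29a-3p, the arm with the collagen seed, had 4865 and 5284 CPM in the controls and 6086, 7391 and 7027 under blue light. All 3 blue-light libraries were higher (log2 fold change 0.43, SE 0.15, edgeR adjusted p 0.332).

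miR-29a-5p, the opposite strand of the hairpin, had 2.94 and 2.26 CPM in the controls and 5.77, 5.12 and 6.24 under blue light, from 20 to 65 counts a library (log2 fold change 1.14, SE 0.30, edgeR adjusted p 0.180). Both arms of the hairpin were thus higher in every blue-light library, and neither passed over all miRNAs. The hairpin lies on chromosome 6, next to that of miR-29b-1.

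The 2 other arms with the seed AGCACCA did not share this order of libraries. miR-29b-3p had 401 and 456 CPM in the controls and 558, 495 and 336 under blue light (log2 fold change 0.11, edgeR adjusted p 0.901), and its sequence is the same from either of its 2 hairpins, on chromosomes 1 and 6. miR-29c-3p had 169 and 171 CPM in the controls and 147, 180 and 143 under blue light (log2 fold change -0.12, edgeR adjusted p 0.888). Groups overlapped for both. The other tested arms, miR-29b-2-5p and miR-29c-5p, had log2 fold changes of 0.41 and -0.08, with edgeR adjusted p of 0.612 and 0.901, and miR-29b-1-5p had 1 to 14 counts a library and was not tested.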

How the data were processed

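The mRNA values deposited by the authors were treated as raw estimated counts for each gene symbol. The submitters' processing notes name StringTie, HISAT2, bcl2fastq 2.0, limma, DESeq2 and the genome build mm10, and give them no roles. They are whole numbers, but low values are uneven (751 values equal 3, 1051 equal 4, 1107 equal 5), so no counting intervals are given. For miRNAs the authors deposited raw counts, 1 row for each mature form. Whether counting used the strand is not stated, and 8 of the 44 chains overlap another gene. From these, edgeR 4.0.16 in R 4.3.3 gave TMM-scaled CPM, filterByExpr by group, quasi-likelihood tests and p-values adjusted by Benjamini-Hochberg over every tested row of a table, threshold 0.05. DESeq2 1.42.0 and limma 3.58.1 (voom) were alternatives, with other scalings, filters, a letter block, summed overlapping genes and left-out libraries. The test was tested on simulated data. The collagen chains and all lists were chosen with earlier results of these data known. Named genes were every called chain or pathway gene, the 4 chains with the smallest p and the 4 most abundant in each group, and the 2 pathway genes with the smallest p in lists without a call. Others are said to be chosen for position or after their values were seen, or complete a chain family. Positions, promoters and miRNA sequences came from RefSeq (GRCm38.p6), where all 44 chains had a position. No protein sequences or exon lengths were used.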

Additional observations from a re-analysis of the deposited data

How the results depend on the processing

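Whether the letters A, B and C pair libraries is not stated. Deviations of same-letter libraries correlated at -0.299 and -0.250, with fewer than 3 pairs. With 2 controls the deviations of one mirror those of the other, so these values cannot decide whether libraries are paired. With the letter as a replicate block 0 genes, 0 chains and 0 pathway genes were called (1455 genes had an unadjusted p under 0.05 in edgeR), Col4a3 went to -0.014, and the cause was not tested. Over all genes, 421 calls became 274 with library totals, 1729 with DESeq2, 198 when a log2 fold change of 1 or more in size was also required, and 0 to 311 with single libraries left out (8 without control A, 0 without control B, where 2872 had an unadjusted p under 0.05 in edgeR, 277 without blue B and 11 without blue C). Chains called were 3 with DESeq2, 2 of them higher, and 0 to 2 with libraries left out, 0 to 1 of them higher. The 3 pathway calls became 6 with DESeq2 size factors, 5 at a mean CPM of at least 5, 14 with DESeq2, 6 with limma-voom, 6 with values divided by 4, 5 with overlapping genes summed and 0 to 3 with libraries left out. Without the low-count filter 1 miR-29 arm, miR-29a-5p, was called, among 32 of 1313 miRNAs. With libraries left out, the median of the other chains ran from -0.13 to 0.11, Col3a1 from -0.77 to 0.49, Col12a1 from -0.16 to 0.11, Col6a1 from -0.26 to 0.014, Col17a1 from -0.18 to 0.087, Col4a3 from -0.011 to 0.11, Col18a1 from -0.033 to 0.22, miR-29b-3p from -0.046 to 0.30 and miR-29c-5p from -0.16 to 0.0037. With library totals Col3a1 went to 0.010, miR-29c-3p to 0.035 and miR-29c-5p to 0.078. With overlapping genes summed, Col4a3 and Col4a4 were joined and had -0.015 together, and the sum that holds Timp1 had -0.15. The cause of these changes was not tested, except that the values with overlapping genes summed are those of joined genes. The sum with Timp1 joined genes linked through a chain of overlaps, beyond Timp1 and Syn1. With 2 against 3 libraries a missed threshold shows no equality.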

Other observations

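Genes with collagen-like stretches that are not collagen chains were described from a list of 26 symbols written after other results were known, of which 22 were tested. In edgeR 0 were called and 4 had an unadjusted p under 0.05 (18.2%, against 16.3% of all tested genes), all higher. DESeq2 called the same 4 (18.2%, against 9.11% of all tested genes) and limma-voom 0. They were the subunits of complement C1q, which microglia and macrophages make, and the scavenger receptor Msr1. C1qc had 5.33 and 7.70 CPM in the controls and 18.1, 14.1 and 13.3 under blue light (log2 fold change 1.22, edgeR adjusted p 0.0622). C1qa had 5.53 and 10.5 CPM in the controls and 31.3, 21.3 and 22.7 under blue light (log2 fold change 1.65, edgeR adjusted p 0.0749). C1qb had a log2 fold change of 1.46 with an edgeR adjusted p of 0.117, and Msr1 one of 1.34 with 0.132. Blue A was the highest library for all 4, and all blue-light libraries lay above the controls.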
